A study of Mus musculus with 17 samples.

Results

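The 37 genes described here serve the folding of proteins and the response of a cell to proteins that do not fold. The list was drawn up by function, with earlier results of these data known: 11 chaperones of the endoplasmic reticulum (ER), 3 disulfide isomerases, 4 genes of ER-associated degradation, the stress sensors Ern1, Atf6 and Eif2ak3 with the transcription factor Xbp1, 7 genes of the integrated stress response, 6 cytosolic heat shock genes and the 2 subunits of the mitochondrial chaperonin. All 37 of the 37 were found among the 50600 gene IDs of the count files, and all 37 passed the filter on low counts. RNA was counted in 17 libraries from C57BL/6J mice. The 3 healthy brain libraries were labelled wild type. The other 14 libraries came from tumors labelled SMARCB1 -/-, and comprised 3 CNS tumors of the SHH subtype, 4 CNS tumors of the Myc subtype, 4 extracranial tumors and 3 syngeneic grafts of tumor into the flank of a host mouse. The age and sex of the mice, the way in which the gene was deleted and the parent tumors and hosts of the grafts are not given in the sources used here. The product of Smarcb1 belongs to SWI/SNF, a chromatin remodeller, and its loss defines rhabdoid tumors.

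The ER folds proteins that will be secreted or set in membranes. When unfolded proteins gather there, the sensors IRE1 (encoded by Ern1), ATF6 and PERK (Eif2ak3) set off the unfolded protein response: IRE1 splices the Xbp1 mRNA, ATF6 is cut to a transcription factor, and both raise the genes of chaperones and of ER-associated degradation. PERK is also one of the kinases of the integrated stress response, in which phosphorylation of eIF2 slows translation in general while the transcription factor ATF4 is made and switches on genes such as Ddit3, Trib3, Asns, Sesn2 and Chac1. In the cytosol, the heat shock factor HSF1 governs a separate set of chaperones. Counts of reads per gene measure mRNA only: splicing of Xbp1, phosphorylation of eIF2 and protein were not measured.

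Total counts were 103095016 to 130835711 for healthy brain, 35662656 to 71390917 for the SHH subtype, 18685672 to 114338058 for the Myc subtype, 22491998 to 52956537 for the extracranial group and 36951431 to 96214427 for the grafts. Smarcb1 itself was at 119 to 132 CPM (counts scaled to the library's total, as adjusted by the TMM method) in brain and at 2.52 to 33.2 CPM in the 14 tumor libraries, with no overlap. Some libraries held transcripts that mark other tissue. In healthy brain 1, the summed CPM of 6 pituitary markers was 1372 and that of 6 fibroblast markers 3926, against at most 656 for the fibroblast markers in the other 2 brains. SHH tumor 1 had 9289 CPM of 6 oligodendrocyte markers. Extracranial tumors 1 and 2 had 86.0 and 73.7 CPM of skeletal muscle markers, against 6.50 and 9.31 in extracranial tumors 3 and 4. The same muscle markers summed to 276 CPM in healthy brain 1 and 49.0 in Myc tumor 1, and the pituitary markers to 193 in Myc tumor 1. The summed CPM of 6 neuron markers was 2407 to 2695 for brain, 381 to 3136 for the SHH subtype, 90.05 to 542 for the Myc subtype, 53.4 to 408 for the extracranial group and 146 to 210.0 for the grafts. Since these are bulk tissue samples, fewer cells of a type and less RNA per cell cannot be told apart. The tissue and the genotype changed together between brain and tumor, so neither can be told apart from the other in those comparisons.

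The promoters of several members are shown first, because they carry sequence elements of the pathways named above. RefSeq promoter windows (GRCm38.p6, 250 bases before to 50 after a start site, 300 bases in all) were found for 31 of the 37 genes, in 34 windows. Both strands were searched. The ER stress response element (ERSE), CCAAT and CCACG with 9 bases between them, was present in 39 of all 32851 windows (0.119%) and in the windows of 8 members: Hspa5, Calr, Derl3, Hsp90b1, Canx, Pdia6, Dnajc3 and Creld2, which is 23.5% of the member windows. Hsp90b1 had 2 such sites, on opposite strands. Each site is given below in the direction of the element, 5′ to 3′, with the element and its spacer in capitals and 5 flanking bases on either side.
Hspa5, chr2:34772020-34772048, + strand: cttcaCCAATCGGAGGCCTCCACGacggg
Hsp90b1, chr10:86705633-86705661, - strand: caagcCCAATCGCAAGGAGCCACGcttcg
Hsp90b1, chr10:86705528-86705556, + strand: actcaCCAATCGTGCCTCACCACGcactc
Calr, chr8:84847070-84847098, + strand: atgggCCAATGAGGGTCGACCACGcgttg
Canx, chr11:50325795-50325823, - strand: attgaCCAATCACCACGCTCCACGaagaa
Pdia6, chr12:17266486-17266514, + strand: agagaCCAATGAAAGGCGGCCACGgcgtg
Dnajc3, chr14:118937822-118937850, + strand: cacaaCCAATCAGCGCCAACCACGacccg
Creld2, chr15:88819515-88819543, - strand: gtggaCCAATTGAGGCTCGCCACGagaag
Derl3, chr10:75893237-75893265, - strand: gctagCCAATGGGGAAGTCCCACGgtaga
The spacers differed between the sites while the flanking CCAAT and CCACG were fixed by the search. The element began 65 bases before the RefSeq start of Hspa5, 98 before that of Pdia6, 105 before that of Dnajc3 and 162 before that of Calr. For Hspa5, the GENCODE M21 gene model (chr2:34771970-34777547, plus strand) starts further upstream and includes the site.

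The second form of the element, ERSE-II (ATTGG, any base, CCACG), was present in 12 of the 32851 windows (0.0365%), among them those of Herpud1 and Dnajb11. The element TGATGNAA, to which ATF4 and C/EBP factors are known to bind as partners, was more common, at 1304 windows (3.97%), and was found in those of Asns, Chac1, Trib3 and Herpud1. Herpud1 was the member with both. Element letters are in capitals in these lines, again in the direction of the element.
Herpud1, chr8:94386372-94386392, + strand: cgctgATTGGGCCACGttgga
Dnajb11, chr16:22857847-22857867, + strand: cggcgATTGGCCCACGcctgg
Herpud1, chr8:94386312-94386329, - strand: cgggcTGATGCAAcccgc
Asns, chr6:7693220-7693237, - strand: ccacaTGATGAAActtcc
Chac1, chr2:119351044-119351061, - strand: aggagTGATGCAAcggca
Trib3, chr2:152344034-152344051, + strand: ccggcTGATGTAAacctg
The Trib3 and Dnajb11 sites began after the RefSeq start, and the others before it. The GENCODE M21 model of Asns (chr6:7675169-7693254, minus strand) starts further upstream and includes its site. That of Trib3 (chr2:152337422-152344032, minus strand) starts further downstream and leaves its site out. The element TGACGTGG, known as the unfolded protein response element, was in 222 windows (0.676%) and in none of the members' windows. A heat shock element of 3 units (GAA, TTC and GAA, each 2 bases apart) was in 198 windows (0.603%), among them those of Hsph1 and of both chaperonin genes. Hspd1 and Hspe1 lie head to head on chromosome 1, share 112 exon bases at their starts, and have a single stretch of overlapping units. This stretch lies between the RefSeq start of Hspe1 and the more downstream RefSeq start of Hspd1. The other RefSeq start of Hspd1 lies upstream of it, so that the stretch is inside the GENCODE model of Hspd1. It is printed here on the Hspe1 strand with the units in capitals.
Hspe1, chr1:55088054-55088081, + strand: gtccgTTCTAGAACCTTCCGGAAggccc
A match is a description of letters in a window and shows no binding.

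To show where these elements lie, up to 250 bases before the RefSeq start are given for a gene of each ER form, from GRCm38.p6 and in the direction of the gene. In Calr the capitals mark the ERSE, which runs on the opposite strand.
Calr, chr8:84846935-84847181, - strand: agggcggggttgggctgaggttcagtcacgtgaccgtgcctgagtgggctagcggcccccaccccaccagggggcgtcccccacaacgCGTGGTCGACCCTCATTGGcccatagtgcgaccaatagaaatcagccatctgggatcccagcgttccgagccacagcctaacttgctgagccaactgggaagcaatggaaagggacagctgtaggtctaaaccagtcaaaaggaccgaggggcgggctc
In Herpud1 the first capitals mark the TGATGNAA element, which runs on the opposite strand, and the second mark ERSE-II, which runs with the gene.
Herpud1, chr8:94386179-94386428, + strand: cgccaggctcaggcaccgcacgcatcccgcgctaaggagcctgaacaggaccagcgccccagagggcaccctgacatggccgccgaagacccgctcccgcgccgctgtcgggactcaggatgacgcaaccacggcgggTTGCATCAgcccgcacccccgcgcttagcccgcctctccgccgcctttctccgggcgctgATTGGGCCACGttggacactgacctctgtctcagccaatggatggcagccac

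**Figure D1:**
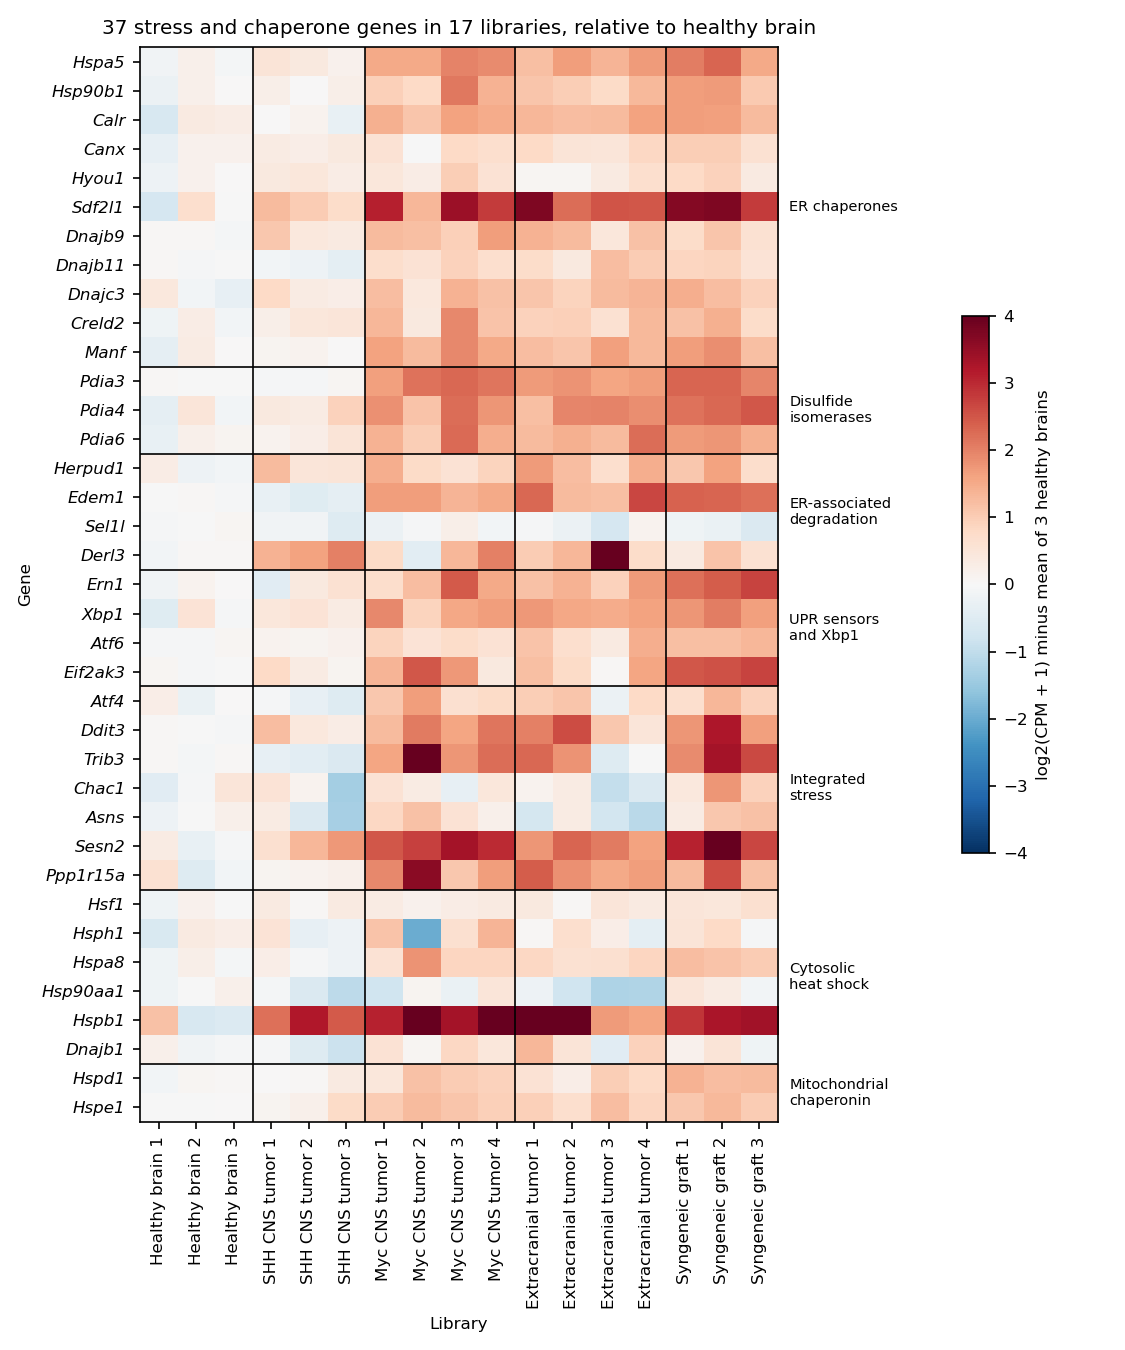
Each row is 1 of the 37 genes and each column 1 of the 17 libraries. Color shows log2(CPM + 1) minus the mean of the 3 healthy brains on that scale, from blue (lower) to red (higher), with lines between the groups and between the roles of the genes. The Myc, extracranial and graft columns are mostly red in the ER rows, the SHH columns are pale in most of them, and Sel1l and Hsp90aa1 stay pale or blue where their neighbours are red.

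Of the 11 ER chaperones, 11 rose in Myc tumors and in grafts against healthy brain, 10 in extracranial tumors, and none passed the test in SHH tumors. Hspa5 (BiP, the Hsp70 of the ER lumen, which binds unfolded chains and holds the sensors inactive) had 248, 318 and 259.7 CPM in brain. It had 388, 358 and 311 CPM in SHH tumors and 778, 784, 1080 and 1022 in Myc tumors. In extracranial tumors Hspa5 was at 630.2, 879, 708 and 893 CPM, and in grafts at 1124, 1390 and 793. Every Myc, extracranial and graft library lay above every brain and SHH library, and the lowest SHH library lay within the brain range. The log2 fold change of Hspa5 was 1.73 ± 0.23 (SE) in Myc tumors against brain (edgeR quasi-likelihood test, Benjamini-Hochberg adjusted p = 4.42e-05). It was 1.498 ± 0.23 in extracranial tumors (adjusted p = 1.15e-04), 2.001 ± 0.24 in grafts (adjusted p = 1.82e-05) and 0.36 ± 0.23 in SHH tumors (adjusted p = 0.392, not called). A gene was called where the adjusted p over all 21494 genes tested was under 0.05. Of all genes tested, 25.3% were called higher than in brain in Myc tumors, 26.1% in extracranial tumors, 24.9% in grafts and 2.44% in SHH tumors. The 3 brain libraries are the same in these 4 comparisons, which are therefore not independent of each other.

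Calr (calreticulin, which binds the sugar chains of new glycoproteins and calcium) had 243, 491 and 467 CPM in brain and 390.0, 419.6 and 312 in SHH tumors, which overlap. Myc tumors had 1015, 819, 1171 and 1066 CPM, extracranial tumors 961, 901, 928 and 1176 and grafts 1219, 1183 and 928, all above every brain and SHH library. Calr rose by 1.35 ± 0.24, 1.31 ± 0.24 and 1.47 ± 0.25 log2 units (SE) in these 3 groups against brain, with adjusted p of 4.62e-04, 5.45e-04 and 3.00e-04. Canx (calnexin), its membrane-bound counterpart, moved less: the log2 fold changes were 0.52 ± 0.21, 0.65 ± 0.21 and 0.85 ± 0.22. The Myc tumor call of Canx (adjusted p = 0.0482) was lost without any 1 of 6 libraries, healthy brain 1, 2 and 3 and Myc tumor 1, 3 and 4, with adjusted p of 0.0656 to 0.193. The extracranial call was lost without healthy brain 1 or extracranial tumor 4 (adjusted p up to 0.0891). Per kilobase of exon, the ratio of Calr to Canx within a library was 1.28 to 1.82 for brain and 0.982 to 1.46 for the SHH subtype, and 2.78 to 3.44 for the Myc subtype, 2.31 to 2.75 for the extracranial group and 2.51 to 2.57 for the grafts. The ratios of the last 3 groups did not overlap those of the first 2. This ratio, like the others below, is a description with no test.

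Sdf2l1, a small ER protein that works with BiP and its J-protein partners, was low in brain at 1.5, 5.37 and 2.97 CPM and was 8.6, 7.12 and 5.58 CPM in SHH tumors. Myc tumors had 33.7, 9.02, 42 and 26.6 CPM, extracranial tumors 52.1, 17.6, 21.7 and 21.3 and grafts 49.6, 51.6 and 26.9. It was the ER chaperone with the largest rise against brain in Myc tumors (3.09 ± 0.59, adjusted p = 7.53e-04), extracranial tumors (3.10 ± 0.59, adjusted p = 7.04e-04) and grafts (3.70 ± 0.63, adjusted p = 2.59e-04). Myc tumor 2, at 9.02 CPM, was near the SHH libraries.

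Hyou1, the large Hsp110-type chaperone of the ER, was the ER chaperone not called in extracranial tumors (0.32 ± 0.21, adjusted p = 0.206), and its call was also fragile elsewhere. It was lost in Myc tumors without healthy brain 1, healthy brain 3 or Myc tumor 3 (adjusted p 0.0714 to 0.101), and in grafts without healthy brain 1, graft 1 or graft 2 (adjusted p 0.0538 to 0.0843). Hsp90b1 (GRP94, the Hsp90 of the ER) rose from 317 ± 45.9 CPM (SD, n = 3) in brain to 832 ± 365 (n = 4) in Myc tumors and 889 ± 208 (n = 3) in grafts, with log2 fold changes of 1.39 ± 0.29 and 1.49 ± 0.31. Among the J-proteins that drive BiP, Dnajb9, Dnajb11 and Dnajc3 rose by 1.32 ± 0.26, 0.73 ± 0.19 and 1.07 ± 0.26 in Myc tumors. Manf, a secreted ER-stress protein that also binds BiP, rose by 1.59 ± 0.22 there (adjusted p = 7.54e-05) and by 1.59 ± 0.23 in grafts (adjusted p = 8.97e-05). Creld2, a secreted protein induced by ER stress, rose by 1.32 ± 0.31 in Myc tumors and 0.99 ± 0.31 in extracranial tumors. The latter call was lost without healthy brain 1 or 3 or extracranial tumor 4 (adjusted p 0.0504 to 0.0612). The graft call of Dnajb9 (0.85 ± 0.27) was lost without healthy brain 3 or graft 2 (adjusted p 0.052 and 0.0793).

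The disulfide isomerases make and rearrange the cystine bonds of new proteins. All 3 were called higher than in brain in Myc tumors, extracranial tumors and grafts, where 25.3%, 26.1% and 24.9% of all genes were. Pdia3 (ERp57, the partner of calreticulin and calnexin) had 287, 280.0 and 276 CPM in brain and nearly the same in SHH tumors, 274, 273 and 295. Myc tumors had 875, 1267, 1377 and 1252 CPM, extracranial tumors 924, 975, 837 and 907 and grafts 1414, 1400 and 1081. Pdia3 had a log2 fold change of 2.08 ± 0.18 in Myc tumors against brain (adjusted p = 2.88e-06), 1.70 ± 0.18 in extracranial tumors (adjusted p = 8.50e-06) and 2.21 ± 0.19 in grafts (adjusted p = 2.11e-06). Pdia4 rose by 1.77 ± 0.30, 1.77 ± 0.30 and 2.29 ± 0.31 in the same order, and Pdia6 by 1.59 ± 0.31, 1.59 ± 0.31 and 1.64 ± 0.33.

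**Figure D2:**
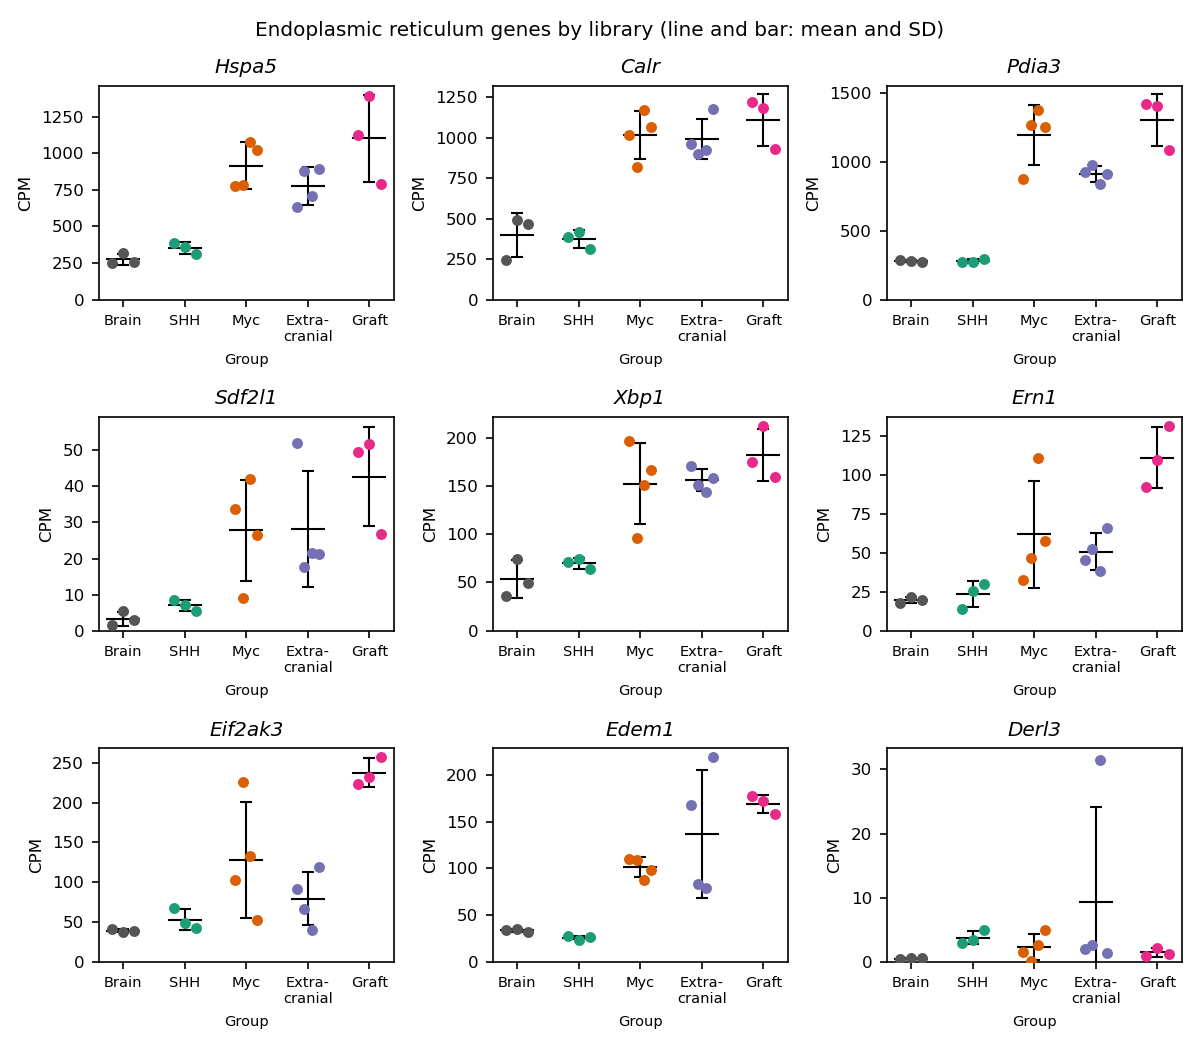
Each panel plots the CPM of an ER gene in the 17 libraries (points) by group, with the mean (line) and SD (bar); all vertical axes start at 0. For Hspa5, Calr, Pdia3 and Edem1 every Myc, extracranial and graft point lies above every brain and SHH point, while Derl3 is set by extracranial tumor 3 at 31.5 CPM.

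ER-associated degradation was split. Edem1, a lectin that hands misfolded glycoproteins on for degradation, had 32.4 to 35 CPM in brain and 23.8 to 27.1 in SHH tumors, with no overlap and the SHH libraries below. It had 87.8 to 110.3 CPM for the Myc subtype, 78.6 to 219.5 for the extracranial group and 159 to 177 for the grafts. Edem1 rose by 1.59 ± 0.30, 2.03 ± 0.30 and 2.33 ± 0.32 log2 units against brain, with adjusted p of 6.20e-04, 1.11e-04 and 5.04e-05. Herpud1, an ER membrane protein that organizes the degradation complex, rose by 0.96 ± 0.31, 1.32 ± 0.32 and 1.20 ± 0.33. Its call in Myc tumors was lost without healthy brain 2, healthy brain 3 or Myc tumor 1 (adjusted p 0.0536 to 0.0752). Sel1l, the scaffold of the HRD1 ubiquitin ligase, was not called in any of the 7 comparisons. It had 180.2 to 195 CPM in brain, 158 to 219 for the Myc subtype, 116 to 204 for the extracranial group and 125 to 166 for the grafts, and the log2 fold changes against brain were -0.026 ± 0.19, -0.18 ± 0.19 and -0.32 ± 0.21. The graft libraries of Sel1l all lay below the brain libraries.

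Derl3, a derlin of the ER membrane found mainly in secretory tissue, was the member of lowest level per kilobase in brain and behaved unlike the rest. It had 0.373, 0.524 and 0.509 CPM in brain, 2.86, 3.43 and 4.88 in SHH tumors and 1.48, 0.104, 2.66 and 4.9 in Myc tumors. Extracranial tumors had 1.95, 2.67, 31.5 and 1.43 CPM, so a single library, extracranial tumor 3, stood far above the other 16, and grafts had 0.872, 2.21 and 1.22. Derl3 was called in extracranial tumors against brain only (4.32 ± 1.26, adjusted p = 0.0108). Without extracranial tumor 3 the log2 fold change was 2.10 (adjusted p = 0.0494). In SHH tumors all 3 libraries lay above all brain libraries (2.99 ± 1.21, adjusted p = 0.169 with edgeR, and 0.0419 with DESeq2). The summed CPM of 6 plasma and B cell markers was 47.9 in extracranial tumor 3 and 122 in extracranial tumor 1, and the part of such cells in the Derl3 level was not tested. Derl3 (chr10:75893413-75895941, plus strand, GRCm38) is also the neighbour of the deleted gene: it ends 827 bases from Smarcb1 (chr10:75896769-75921617, minus strand), and the genes point toward each other.

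Of the 4 sensor genes (with Xbp1), 4 were called higher than in brain in Myc tumors and in grafts, and 3 in extracranial tumors. Of all genes tested, 25.3% were called higher in Myc tumors, 24.9% in grafts and 26.1% in extracranial tumors. Ern1 had 17.7, 21.4 and 19.5 CPM in brain, 14.1, 25.7 and 30.1 in SHH tumors and 32.3, 46.9, 111 and 57.4 in Myc tumors. It had 45.6, 52.5, 38 and 66 CPM in extracranial tumors and 92.3, 109 and 131 in grafts. The brain and SHH ranges overlapped, and all Myc, extracranial and graft libraries lay above both. Ern1 rose by 1.67 ± 0.38 (adjusted p = 0.00229), 1.37 ± 0.37 (adjusted p = 0.00708) and 2.51 ± 0.40 (adjusted p = 1.80e-04) against brain. Xbp1, the transcription factor whose mRNA IRE1 splices, had 35.9, 74.8 and 49.6 CPM in brain and 70.9, 74.7 and 63.8 in SHH tumors. Myc tumors had 197, 96.4, 151 and 166 CPM of Xbp1, extracranial tumors 171, 151, 144 and 158 and grafts 175, 213 and 159.7. Xbp1 rose by 1.51 ± 0.26, 1.55 ± 0.26 and 1.77 ± 0.27, and here too no library of the 3 groups overlapped brain.

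Atf6 changed less against brain than Ern1 and Xbp1. It had 35.7, 36.1 and 39.1 CPM in brain, 40.7, 39.6 and 41.8 in SHH tumors and 69, 53.9, 62.8 and 55.9 in Myc tumors. Extracranial tumors had 83.6, 59.5, 48.1 and 103 CPM of Atf6 and grafts 86.7, 87.2 and 94.6. The spread of Atf6 was narrow within each group except the extracranial tumors. The log2 fold changes of Atf6 against brain were 0.71 ± 0.21, 0.99 ± 0.22 and 1.27 ± 0.23 in Myc tumors, extracranial tumors and grafts, all called. Eif2ak3 (PERK) had 41.1, 37.7 and 38.6 CPM in brain and 68, 49.2 and 42 in SHH tumors, without overlap. It ranged widely in Myc tumors, at 102, 226, 133 and 52, and in extracranial tumors, at 92, 66.9, 40.1 and 119, and was high in all grafts, at 224, 232 and 258. Eif2ak3 rose by 1.71 ± 0.43 in Myc tumors (adjusted p = 0.00425) and 2.60 ± 0.46 in grafts (adjusted p = 3.44e-04). In extracranial tumors the value was 1.02 ± 0.41 (adjusted p = 0.0512), which missed the threshold, and extracranial tumor 3 lay within the brain range. Without that library the value was 1.24 (adjusted p = 0.0182).

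Over all 37 members, 29 were called higher in Myc tumors than in brain (78.4%), where 25.3% of all genes tested were called higher. In extracranial tumors 26 were called higher (70.3%, against 26.1% of all genes), and in grafts 30 (81.1%, against 24.9%). By edgeR, 0 members were called lower in these comparisons, where 26.8%, 26.1% and 30.4% of all genes were. At an unadjusted p under 0.05, 0 were lower in Myc tumors and grafts and 1, Hsp90aa1, in extracranial tumors. DESeq2 and limma voom each called Hsp90aa1 lower in extracranial tumors, and voom called Sel1l lower in grafts. The median log2 fold change of the members was 1.32 in Myc tumors, 1.14 in extracranial tumors and 1.30 in grafts, beside medians over all genes of -0.012, 0.050 and -0.16. The libraries did not overlap for 28 members in Myc tumors, all above brain, where 25.2% of all genes tested lay above brain without overlap and 30.7% below. In extracranial tumors 26 members lay above brain and Hsp90aa1 below, beside 24.8% and 29.6% of all genes. In grafts 32 lay above and Sel1l below, beside 34.5% and 40.5%. Against brain, the calls of 25 of the 29, 22 of the 26 and 24 of the 30 members held without any 1 library. The summed CPM of the 37 genes was 4804 to 5983 for brain, 5147 to 6245 for the SHH subtype, 9595 to 12620 for the Myc subtype, 8696 to 10610 for the extracranial group and 11010 to 14100 for the grafts.

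**Figure D3:**
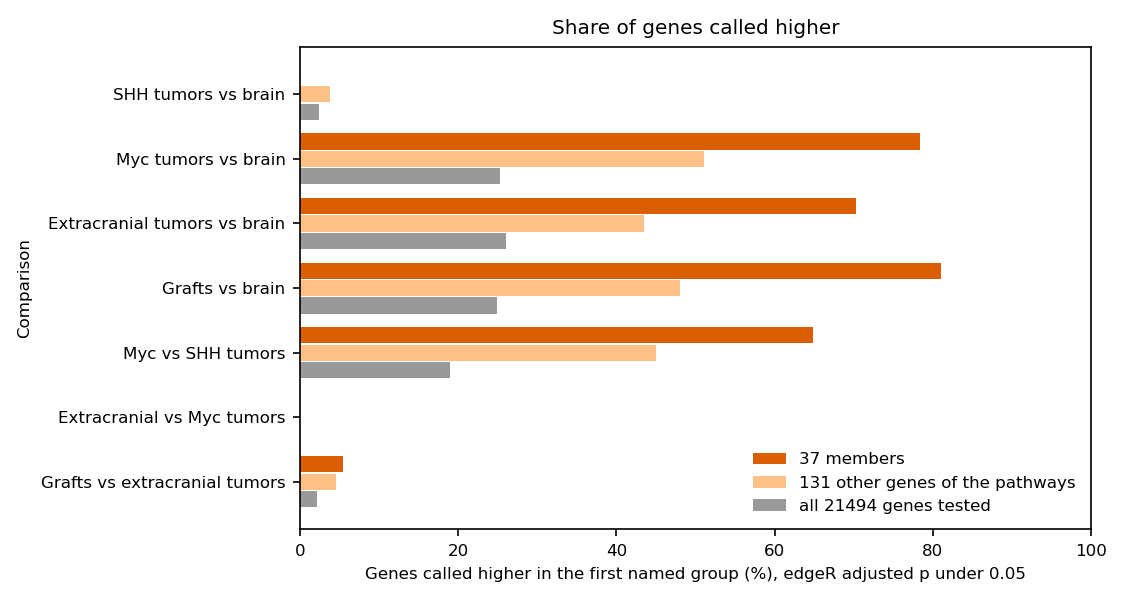
Bars give the percentage of genes called higher in the first named group (edgeR, adjusted p under 0.05) for the 37 members, for 131 other genes of the same pathways and for all 21494 genes tested. In Myc tumors against brain the bars stand at 78.4% of the members and 25.3% of all genes, and no member was called higher in SHH tumors against brain or in extracranial against Myc tumors.

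Markers of other cell types also differed between the groups. The summed CPM of 6 macrophage markers was 55.1 to 75.7 for brain, 199 to 378 for the SHH subtype, 1093 to 3650 for the Myc subtype, 1756 to 6371 for the extracranial group and 4275 to 8247 for the grafts. The 6 fibroblast markers, genes of collagen-secreting cells, summed to 446 to 3926 CPM for brain, 371 to 482 for the SHH subtype, 3992 to 15850 for the Myc subtype, 5230 to 10910 for the extracranial group and 2134 to 2458 for the grafts. Plasma and B cell markers reached 91.2 to 206 CPM in grafts and at most 3.51 in brain. In each of these lists no marker was at 0 throughout a group. Their part in the rise of the ER genes was not tested. Within the brain group, healthy brain 1 had the highest fibroblast sum and also held pituitary and muscle transcripts. It was the lowest of the 3 brains in 15 of the 22 ER genes and in 6 of the 8 heat shock and chaperonin genes. The share of all genes in which it was the lowest was not counted, and a link between these values was not tested.

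Other genes of the ER secretory pathway, a list of 46 that includes the translocon, signal peptidase, glycosylation and retrieval machinery, rose as well: 32 were called higher and 0 lower in Myc tumors against brain, 32 and 1 in extracranial tumors, and 28 and 2 in grafts. The shares called higher were 69.6%, 69.6% and 60.9%, beside 25.3%, 26.1% and 24.9% of all genes. Kdelr2, a receptor that returns escaped ER proteins from the Golgi, was at 182 ± 38 CPM (SD, n = 4) in Myc tumors and 40.2 ± 3.61 (n = 3) in brain, a log2 fold change of 2.18 ± 0.23. Ssr4, a subunit of the translocon-associated complex, rose by 2.02 ± 0.20 in Myc tumors and 1.69 ± 0.20 in extracranial tumors. Serp1, which stabilizes membrane proteins at the translocon, rose by 2.41 ± 0.24 in grafts (adjusted p = 5.51e-06). All 3 were among the 4 genes of smallest adjusted p on their list in Myc tumors, extracranial tumors and grafts against brain. None of them was called in SHH tumors against brain.

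The integrated stress genes were split as well. Against brain, 5 of 7 were called higher in Myc tumors (Atf4, Ddit3, Trib3, Sesn2 and Ppp1r15a), 3 in extracranial tumors (Ddit3, Sesn2 and Ppp1r15a) and 5 in grafts (the same genes as in Myc tumors). These are 71.4%, 42.9% and 71.4%, beside 25.3%, 26.1% and 24.9% of all genes. Atf4, the central transcription factor of the response, had 149, 104 and 126 CPM in brain and 121, 100.2 and 87.8 in SHH tumors. It had 263, 396, 195 and 215 CPM in Myc tumors, 248, 270.4, 106 and 219.6 in extracranial tumors and 199, 312 and 239 in grafts. Its log2 fold changes against brain were 1.08 ± 0.32 (adjusted p = 0.0114), 0.74 ± 0.31 (adjusted p = 0.0606, not called) and 0.99 ± 0.33 (adjusted p = 0.0218). Atf4 lost its call in Myc tumors without healthy brain 2 (adjusted p = 0.0532) and in grafts without healthy brain 2, healthy brain 3 or graft 2 (adjusted p 0.0561 to 0.0939). Without extracranial tumor 3, Atf4 was called in extracranial tumors (0.96, adjusted p = 0.00834). ATF4 is regulated mainly through translation, which these counts do not measure.

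Ddit3 (CHOP, a transcription factor linked to cell death under lasting stress) was at 9.2, 8.87 and 8.65 CPM in brain, a narrow range, and at 22.5, 12.2 and 11.1 in SHH tumors. It had 23, 40.6, 28.7 and 43 CPM in Myc tumors, 39.4, 59.2, 20.02 and 12.8 in extracranial tumors and 32.6, 91.2 and 29.9 in grafts, so all 14 tumor libraries lay above all 3 brains. Ddit3 rose by 1.93 ± 0.53, 1.88 ± 0.53 and 2.52 ± 0.56 in the last 3 groups. Without graft 2 the graft value was 1.79 (adjusted p = 0.0138). Without extracranial tumors 1 and 2, which held muscle transcripts, the extracranial value was 0.87 (adjusted p = 0.158). The Ddit3 gene model shares 68 exon bases with Mars on the opposite strand, and the strand setting of the counting was not given.

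Trib3 encodes a pseudokinase induced by ATF4 and CHOP. It was at 1.28, 1.07 and 1.27 CPM in brain and lower in every SHH tumor, at 0.747, 0.658 and 0.475. Myc tumors had 5.58, 49.8, 6.42 and 9.33 CPM, extracranial tumors 9.85, 6.67, 0.537 and 1.19 and grafts 7.15, 21.2 and 12.8. Extracranial tumor 3 was below the brain range and 4 within it, while 1 and 2 were above it. Trib3 rose by 3.88 ± 1.04 in Myc tumors (adjusted p = 0.00694) and 3.50 ± 1.05 in grafts (adjusted p = 0.0116). Without Myc tumor 2 the Myc value was 2.57 (adjusted p = 0.0208). In extracranial tumors Trib3 was called without extracranial tumor 3 (2.29, adjusted p = 0.0411).

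Sesn2 (sestrin 2, which restrains mTORC1 when amino acids are short) had the smallest adjusted p of the 7 in each of the 3 groups. It had 14.9, 9.38 and 11.4 CPM in brain, 19, 31.2 and 41 in SHH tumors, 70.0, 83.2, 127 and 99.5 in Myc tumors, 42.1, 63.5, 53.2 and 37.7 in extracranial tumors and 107, 206 and 80.2 in grafts. Every tumor library lay above every brain library. Sesn2 rose by 2.99 ± 0.38 (adjusted p = 3.71e-05), 2.04 ± 0.36 (adjusted p = 4.28e-04) and 3.46 ± 0.40 (adjusted p = 1.49e-05) against brain. In SHH tumors the value was 1.35 ± 0.37, with an adjusted p of 0.0536 just above the threshold. Ppp1r15a (GADD34, the phosphatase subunit that ends eIF2 phosphorylation) had 21.5, 9.37 and 12.7 CPM in brain, 14.9, 15.2 and 16 in SHH tumors and 54.3, 178, 30.3 and 45.6 in Myc tumors. It had 78.7, 51, 41.1 and 45.8 CPM in extracranial tumors and 34.7, 88.8 and 32.1 in grafts. Ppp1r15a rose by 2.41 ± 0.58, 1.90 ± 0.57 and 1.84 ± 0.59. Without Myc tumor 2 the Myc value was 1.57 (adjusted p = 0.007), and the graft call was lost without healthy brain 2, healthy brain 3 or graft 2 (adjusted p 0.0568 to 0.109). The extracranial call was lost without healthy brain 2 (adjusted p = 0.0577) and without extracranial tumors 1 and 2 together (adjusted p = 0.0644).

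Asns and Chac1, both known targets of ATF4, did not pass the edgeR test over all 17 libraries against brain in any tumor group. Asns, which makes asparagine, had 45.5, 51.7 and 59.6 CPM in brain, 65.6, 34.6 and 20.13 in SHH tumors and 93.5, 119, 77.2 and 59.6 in Myc tumors. It had 31.3, 65.6, 30.6 and 24.3 CPM in extracranial tumors, where 3 of 4 libraries lay below the brain range, and 64.8, 111 and 119 in grafts, all above it. The log2 fold changes of Asns were 0.74 ± 0.41, -0.46 ± 0.40 and 0.91 ± 0.43. With the compared groups only, Asns was called in Myc tumors (adjusted p = 0.0326) and in grafts (adjusted p = 0.0155). Chac1, which degrades glutathione, was at 2.48, 3.59 and 5.65 CPM in brain, 5.9, 4.23 and 0.86 in SHH tumors and 6.01, 5.01, 2.8 and 5.53 in Myc tumors. It was at 4.2, 4.96, 1.43 and 2.14 CPM in extracranial tumors and 5.4, 15.2 and 7.99 in grafts, so that every group overlapped brain and graft 2 was the highest library. Chac1 was called in grafts with the compared groups only (adjusted p = 0.0476), and voom called both genes there (adjusted p = 0.00936 for Asns and 0.0344 for Chac1). The immediate early genes, which rise within minutes of handling or injury, summed over 6 members to 54.2 to 164 CPM for brain, 110 to 234 for the SHH subtype, 653 to 896 for the Myc subtype, 478 to 1327 for the extracranial group and 553 to 922 for the grafts. They were highest in the groups in which Ddit3 and Ppp1r15a were called, and their part in these results was not tested.

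Of 44 other genes of the integrated stress response, 19 were called higher and 2 lower in Myc tumors against brain, 15 and 7 in extracranial tumors, and 21 and 4 in grafts. The shares called higher were 43.2%, 34.1% and 47.7%, beside 25.3%, 26.1% and 24.9% of all genes. Eif2ak2 (PKR), the eIF2 kinase that senses double-stranded RNA and is itself induced by interferon, had the smallest adjusted p of the list in all 3, with log2 fold changes of 2.99 ± 0.28, 2.60 ± 0.28 and 3.38 ± 0.30. Tars, the threonyl-tRNA synthetase, rose by 1.18 ± 0.17 in Myc tumors and 1.71 ± 0.18 in grafts. Aldh1l2, a mitochondrial folate enzyme, fell in all 3 groups, from 56.2 ± 14.2 CPM (SD, n = 3) in brain to 2.18 ± 1.23 (n = 4) for the Myc subtype, 0.679 ± 0.311 (n = 4) for the extracranial group and 0.444 ± 0.181 (n = 3) in grafts.

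**Figure D4:**
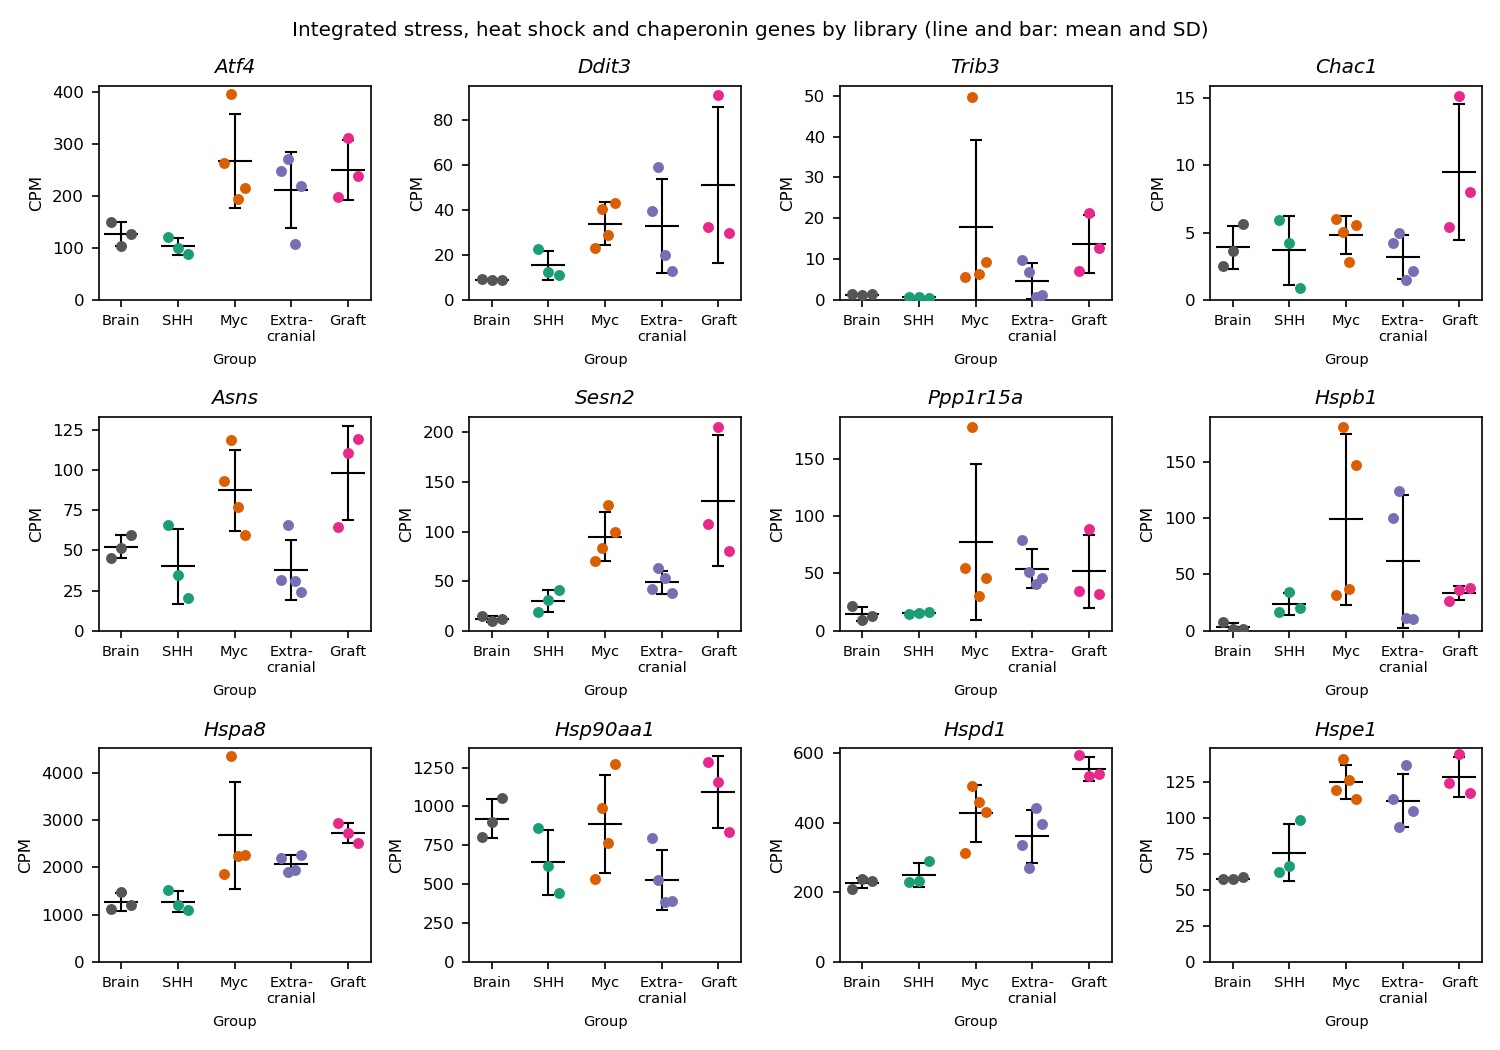
Each panel plots the CPM of an integrated stress, heat shock or chaperonin gene in the 17 libraries (points) by group, with the mean (line) and SD (bar) and axes from 0. Myc tumor 2 is the highest point for Trib3, Ppp1r15a and Hspa8, Hspb1 splits the Myc and extracranial libraries into high and low, and Hsp90aa1 lies below all 3 brains in all 4 extracranial tumors.

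The cytosolic heat shock genes did not move as a set. Against brain, 2 of 6 were called higher in Myc tumors and in extracranial tumors (Hspa8 and Hspb1) and 3 in grafts (with Hsf1). Beside these counts, 25.3% of all genes tested were called higher in Myc tumors, 26.1% in extracranial tumors and 24.9% in grafts. Whether the heat shock genes differed from all genes in this was not tested. Hspa8 (Hsc70, the constitutive Hsp70 of the cytosol) was the highest member of every group per kilobase. It had 1111, 1471 and 1194 CPM in brain, 1518, 1197 and 1095 in SHH tumors and 1855, 4369, 2253 and 2265 in Myc tumors. It had 2209, 1907, 1943 and 2254 CPM in extracranial tumors and 2943, 2728 and 2511 in grafts, and in all 3 of these groups every library lay above every brain library. Hspa8 rose by 1.09 ± 0.26, 0.72 ± 0.26 and 1.12 ± 0.28. The extracranial call was lost without healthy brain 1, healthy brain 3, extracranial tumor 1 or extracranial tumor 4 (adjusted p 0.0565 to 0.103), and without extracranial tumors 1 and 2 together (adjusted p = 0.0798).

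Hspb1 (Hsp27, a small heat shock protein that holds unfolded proteins and binds actin) was at 7.69, 1.47 and 1.65 CPM in brain, with healthy brain 1 the highest, and at 16.6, 34.6 and 20.05 in SHH tumors. Myc tumors had 31.3, 180.5, 37.3 and 147 CPM, extracranial tumors 99.8, 124, 11.6 and 10.6 and grafts 26.7, 36.4 and 38.3. Myc tumors 2 and 4 and extracranial tumors 1 and 2 were each several times above the other libraries of their group. Hspb1 rose by 4.78 ± 1.08 (adjusted p = 0.00229), 4.09 ± 1.04 (adjusted p = 0.00479) and 3.23 ± 1.02 (adjusted p = 0.0156) against brain. Without healthy brain 1 these values were 5.98, 5.30 and 4.43 (adjusted p = 0.0025, 0.00411 and 0.00843). Without extracranial tumor 2 the extracranial value was 3.45 (adjusted p = 0.0114), and without extracranial tumors 1 and 2 together it was 1.62 (adjusted p = 0.116). The graft call was lost without healthy brain 2 or 3 (adjusted p 0.06 and 0.0614).

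Hsp90aa1, the inducible Hsp90 of the cytosol, had 804, 899 and 1054 CPM in brain, 862, 614 and 445 in SHH tumors and 531, 992, 764 and 1270 in Myc tumors. It had 795, 528, 387 and 394 CPM in extracranial tumors, each below every brain, and 1288, 1158 and 838 in grafts. The extracranial value was -0.81 ± 0.33 with an adjusted p of 0.0503, just above the threshold. Hsph1, Dnajb1 and Hsf1 (the heat shock factor) had log2 fold changes of 0.67 ± 0.55, 0.51 ± 0.34 and 0.28 ± 0.15 in Myc tumors against brain, none called. Hsph1 was at 35.0 CPM in Myc tumor 2 and at 223 to 364 in the other 3 Myc tumors. Without Myc tumor 2, Hsph1 was called against brain (1.03, adjusted p = 0.0253) and against SHH tumors (1.01, adjusted p = 0.0366). Hsf1 was called in grafts only (0.54 ± 0.17), and that call was lost without healthy brain 1 or graft 3 (adjusted p 0.0537 and 0.0524).

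Of 41 other heat shock and co-chaperone genes, 16 were called higher and 2 lower in Myc tumors against brain, 10 and 2 in extracranial tumors, and 14 and 4 in grafts. The shares called higher were 39.0%, 24.4% and 34.1%, beside 25.3%, 26.1% and 24.9% of all genes. Bag3, a partner of Hsp70 in selective autophagy, rose by 4.22 ± 0.50, 4.30 ± 0.50 and 3.98 ± 0.50, and also in SHH tumors (1.87 ± 0.46, adjusted p = 0.0376). Hspa1b, the inducible Hsp70, had 91.8 ± 57.6 CPM (SD, n = 4) in Myc tumors and 2.08 ± 0.602 (n = 3) in brain (5.46 ± 0.88, adjusted p = 2.10e-04), and reads of its near-identical copy Hspa1a could be split between them by the counting. Cdc37, which brings kinases to Hsp90, rose by 1.15 ± 0.14 in Myc tumors and 1.30 ± 0.15 in grafts. Hsf2, another heat shock factor, fell from 76 ± 3.09 CPM (SD, n = 3) in brain to 30.7 ± 6.2 (n = 4) in Myc tumors and 23.4 ± 0.994 (n = 3) in grafts.

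The chaperonin subunits rose together. Hspd1 (Hsp60) had 209.7, 237 and 232 CPM in brain, 229, 233 and 289.6 in SHH tumors and 313, 506, 461 and 430.0 in Myc tumors. It had 336, 269, 444 and 396 CPM in extracranial tumors and 596, 534 and 539.6 in grafts. Hspe1 (Hsp10) went from 57.4 to 58.7 CPM in brain to 114 to 142 for the Myc subtype, 93.6 to 138 for the extracranial group and 118 to 145 for the grafts. Both were above brain in every library of these 3 groups. Hspd1 rose by 0.92 ± 0.20, 0.68 ± 0.20 and 1.30 ± 0.21, and Hspe1 by 1.11 ± 0.18, 0.95 ± 0.18 and 1.16 ± 0.19. Per kilobase of exon, the ratio of Hspd1 to Hspe1 within a library was 2.04 to 2.29 in brain and 1.46 to 2.67 over all 17 libraries. The annotation holds 5 pseudogenes named for Hspd1 and 6 for Hspe1, so some of their reads may have been placed elsewhere. Those pseudogenes held 1601 and 149 counts over the 17 libraries, beside 370445 and 99965 for the genes.

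The Hsp70 and Hsp90 families each have members in the ER and in the cytosol. The levels per kilobase of an ER member and a cytosolic member can be set against each other within a library, which does not depend on library scaling. Other cytosolic members of these families do not enter the ratios. The ratio of Hspa5 (ER) to Hspa8 (cytosol) was 0.227, 0.22 and 0.221 in brain, and 0.26, 0.304 and 0.289 in SHH tumors, where every library lay above every brain. It was 0.426, 0.182, 0.487 and 0.459 in Myc tumors, 0.29, 0.469, 0.371 and 0.403 in extracranial tumors and 0.388, 0.518 and 0.321 in grafts. Myc tumor 2, the library with the highest Hspa8, was the only tumor library below the brain range. The ratio of Hsp90b1 (ER) to Hsp90aa1 (cytosol) was 0.327, 0.392 and 0.296 in brain and 0.418, 0.505 and 0.817 in SHH tumors. It was 1.11, 0.538, 1.72 and 0.632 in Myc tumors, 0.832, 1.16, 1.34 and 1.91 in extracranial tumors and 0.756, 0.858 and 0.756 in grafts. Hsp90b1 thus exceeded Hsp90aa1 in some Myc and extracranial libraries and in no brain, SHH or graft library. The level of Hsp90aa1 itself also differed between these groups, as given above. All 14 tumor libraries lay above the 3 brains for this ratio.

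**Figure D5:**
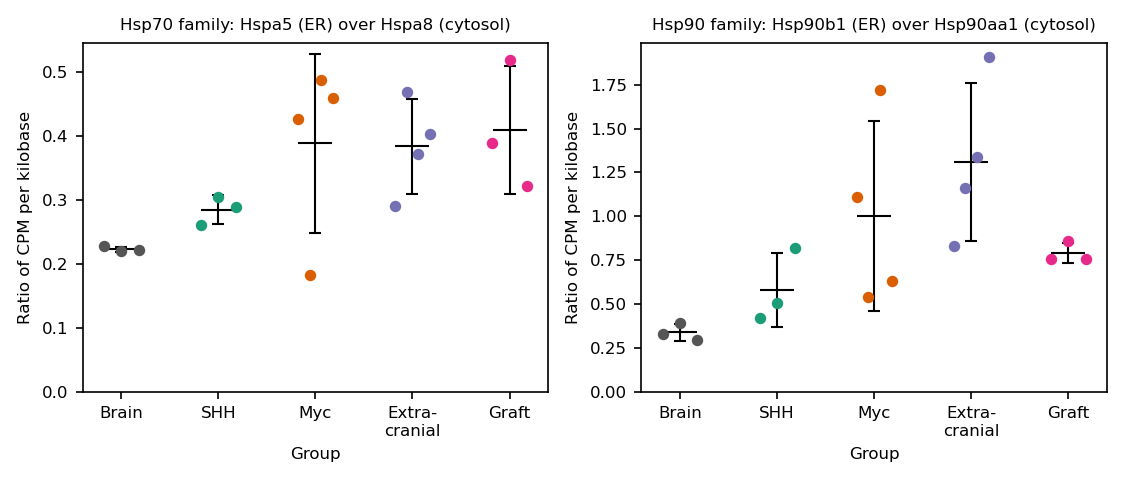
For each of the 17 libraries, points give a ratio of CPM per kilobase, with the group mean (line) and SD (bar) and axes from 0. The Hsp70 ratio is Hspa5 over Hspa8, and the Hsp90 ratio is Hsp90b1 over Hsp90aa1. The Hsp90 ratio is 0.296 to 0.392 in brain and higher in all 14 tumor libraries, and the Hsp70 ratio of Myc tumor 2, at 0.182, is the only tumor value below the brains.

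In SHH tumors, 0 of 37 members passed the edgeR test against brain, where 2.44% of all genes were called higher and 1.94% lower. At an unadjusted p under 0.05 there were 5. DESeq2 called 3 higher (Derl3, Sesn2 and Hspb1), and limma voom with quality weights called 6 higher (Dnajb9, Dnajc3, Herpud1, Derl3, Sesn2 and Hspb1) and 1 lower (Hsp90aa1). For 12 members all SHH libraries lay above all brains, and for 4 (Dnajb11, Edem1, Sel1l and Trib3) all lay below, where 15.7% and 20.7% of all genes tested did so. The median log2 fold change of the members was 0.26, and -0.021 over all genes. Of the 131 other pathway genes, 5 were called higher and 3 lower in SHH tumors, among them Wfs1, an ER calcium-handling protein (1.31 ± 0.26, adjusted p = 0.0165).

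The difference between the CNS subtypes was tested directly. Of the 37 members, 24 (64.9%) were called higher in Myc than in SHH tumors, where 19% of all genes were called higher and 21.9% lower. None of the members was called lower by edgeR, DESeq2 or voom, and 0 were lower at an unadjusted p under 0.05. The members' median log2 fold change was 1.12, and that of all genes 0.0026. For 22 members all Myc libraries lay above all SHH libraries and for 0 below, beside 19.8% and 23.1% of all genes. Pdia3 had a log2 fold change of 2.09 ± 0.18 (adjusted p = 8.45e-06), Manf 1.52 ± 0.22, Edem1 1.98 ± 0.30, Calr 1.45 ± 0.24 and Hspa5 1.38 ± 0.22. Trib3 (4.82 ± 1.10, adjusted p = 0.00371) and Ppp1r15a (2.33 ± 0.58, adjusted p = 0.00628) had the largest increases, and without Myc tumor 2 these were 3.48 (adjusted p = 0.00795) and 1.46 (adjusted p = 0.0145). Atf4 was higher as well (1.38 ± 0.32, adjusted p = 0.00423). By role, 7 of 11 ER chaperones, 3 of 3 disulfide isomerases, 1 of 4 degradation genes (Edem1), 4 of 4 sensors, 5 of 7 integrated stress genes, 2 of 6 heat shock genes and 2 of 2 chaperonin subunits were called. The chaperones not called were Canx, Hyou1, Dnajb9 and Dnajc3, with log2 fold changes of 0.21 ± 0.21, 0.22 ± 0.21, 0.65 ± 0.25 and 0.61 ± 0.25.

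Of those 24 calls, 19 held without any 1 library of the compared groups. Atf6 (0.57 ± 0.21, adjusted p = 0.0452) was lost without each of the 7 libraries in turn (adjusted p 0.056 to 0.118). Creld2 was lost without SHH tumor 1, 2 or 3 or Myc tumor 1 or 3 (adjusted p 0.0547 to 0.113), and Eif2ak3 without SHH tumor 2 or 3 or Myc tumor 2 (adjusted p 0.079 to 0.0949). Asns was lost without SHH tumor 2 or 3 or Myc tumor 1, 2 or 3 (adjusted p 0.0598 to 0.154), and Dnajb1 without SHH tumor 2 or 3 or Myc tumor 1, 3 or 4 (adjusted p 0.0599 to 0.134). In the same comparison 59 of the 131 other pathway genes were called higher and 10 lower. Those higher included Ssr4 (1.85 ± 0.20) and Cebpb, a partner of ATF4 (5.60 ± 0.83), and those lower included Gpt2, an alanine transaminase (-3.47 ± 0.45). The macrophage and fibroblast sums given above did not overlap between these subtypes either, and their part in the difference was not tested.

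Extracranial tumors were also compared with Myc tumors. Of the 37 members, 0 were called by edgeR, where 0% of all genes were called higher and 0.0186% lower, and 5 had an unadjusted p under 0.05. DESeq2 called 3 lower in extracranial tumors (Pdia3, Asns and Sesn2) and voom called 0. The edgeR log2 fold changes of those genes were -0.39 ± 0.16, -1.20 ± 0.38 and -0.95 ± 0.32, with adjusted p of 0.253, 0.168 and 0.187. Sesn2 was the only member whose libraries did not overlap, with all 4 extracranial tumors below the 4 Myc tumors, as for 2.2% of all genes, and 0 members lay above, beside 2.24%. All 7 integrated stress genes had a negative log2 fold change, from -1.96 to -0.043, of which 3 had an unadjusted p under 0.05. A value that missed the threshold does not show that the groups were alike.

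Grafts exceeded extracranial tumors for 2 members, 5.41% of the 37, where 2.16% of all genes were called higher and 2.62% lower. Eif2ak3 (PERK) rose by 1.58 ± 0.40 (adjusted p = 0.0421) and Sesn2 by 1.42 ± 0.34 (adjusted p = 0.0353), and no library of the groups overlapped for either. Eif2ak3 lost its call without extracranial tumor 2 or 3 or any 1 of the 3 grafts (adjusted p 0.0588 to 0.131), and Sesn2 without extracranial tumor 4, graft 1 or graft 2 (adjusted p 0.0687 to 0.17). In all, 9 members lay above without overlap, of which 2 were called, and 0 lay below, where 11.9% and 10.3% of all genes tested did so. Among these, Ern1 had 1.14 ± 0.36 (adjusted p = 0.0722), Hspd1 0.62 ± 0.20 (adjusted p = 0.0714) and Hsp90aa1 1.06 ± 0.33 (adjusted p = 0.0689). Of the other pathway genes, the tRNA synthetases Wars (0.92 ± 0.17) and Tars (0.79 ± 0.16) and the amino acid transporter Slc7a5 (1.38 ± 0.23) were called higher in grafts, all on the integrated stress list, and the Hsp90 co-chaperones Fkbp4 (1.70 ± 0.32) and Stip1 (1.32 ± 0.27) on the heat shock list. T and NK cell markers summed to 102 to 195 CPM in grafts and 9.01 to 43.7 in extracranial tumors, and macrophage markers overlapped. Endothelial markers summed to 344 to 424 CPM in grafts and 86.6 to 337 in extracranial tumors, and fibroblast markers to 2134 to 2458 and 5230 to 10910. Whether these cells play a part was not tested.

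In Myc and extracranial tumors, the libraries highest for the ER genes were not those highest for the integrated stress genes. Among the 4 Myc tumors, Myc tumor 3 was the highest for 15 of the 22 ER genes and Myc tumor 2 the lowest for 14, including Calr, Canx, Sdf2l1 and Xbp1. Myc tumor 2 was the highest for 4 of the 7 integrated stress genes, Atf4, Trib3, Asns and Ppp1r15a, and for Eif2ak3. Among extracranial tumors, tumor 4 was the highest for 13 ER genes and for 0 integrated stress genes, while tumor 2 was the highest for 5 integrated stress genes and 1 ER gene. In grafts these went together at the high end only: graft 2 was the highest for 12 ER genes and 6 integrated stress genes. At the low end, graft 3 was the lowest for 17 ER genes and 3 integrated stress genes, and graft 1 for 5 and 4. The counts describe these libraries and carry no test. The share of all genes for which a library was the highest or lowest of its group was not counted. A trait of these genes therefore cannot be told from a shift of the whole library. Total counts were 20594147 in Myc tumor 2 and 114338058 in Myc tumor 3. The members' coefficient of variation had a median of 14.5% in brain, 17.4% in SHH tumors, 28.2% in Myc tumors, 25.1% in extracranial tumors and 18.7% in grafts.

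Per kilobase, Hspa8 was the highest member in every group, and the next places differed between groups. In brain, Hspa8 was at 293 ± 43.9 CPM per kilobase (SD, n = 3), Hsp90aa1 at 234 ± 32.1 and Calr at 139 ± 47.4. In Myc tumors Hspa8 was at 624 ± 265 (n = 4), Pdia3 at 380.0 ± 69.8, Calr at 354 ± 51.2 and Hsp90aa1 at 226 ± 80.4. The SD ranges of Pdia3 and Calr overlap there, and their order within libraries was not tested. In grafts the order was Hspa8, Pdia3, Calr and Hsp90aa1 as well, at 634 ± 50.3, 414 ± 60.0, 385 ± 55.1 and 278 ± 58.9 (n = 3).

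Returning to the promoter elements, the 8 members with an ERSE were called higher in 7 of 8 cases in Myc tumors against brain, in 8 in extracranial tumors and in 7 in grafts, beside 0 in SHH tumors. Derl3 was the exception in Myc tumors and grafts. In Myc tumors, extracranial tumors and grafts, 78.4%, 70.3% and 81.1% of all 37 members were called higher, and 25.3%, 26.1% and 24.9% of all genes. Among other genes with an ERSE, 16 were tested, of which 2 were called higher and 3 lower in Myc tumors, 0 and 2 in extracranial tumors, and 5 and 2 in grafts. Of the 4 members with the TGATGNAA element, 2 were called in Myc tumors (Trib3 and Herpud1), 1 in extracranial tumors (Herpud1) and 2 in grafts. Asns and Chac1, which carry the same letters, were not called against brain. Among other genes with the TGATGNAA element, 401 were tested. Of these, 118 were called higher and 109 lower in Myc tumors, 121 and 110 in extracranial tumors, and 133 and 127 in grafts. No test was made of these counts, and the windows leave out 6 members (Atf6, Hyou1, Hsp90aa1, Manf, Hspa8 and Hsf1).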

How the data were processed

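Total RNA was extracted with the miRNeasy mini kit and sequenced as stranded mRNA libraries, per the labels' protocols. The authors aligned reads with STAR 2.5.3a to mm10, per the submitters' processing notes, and deposited raw read counts per gene. The counter and its strand setting are not given in the sources used here. The labels call the libraries separate tumors and biological replicates, but do not say which share an animal or a parent tumor, and the p-values measure the spread between these samples.

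Of the 50600 gene IDs, 45737 matched GENCODE M21 (GRCm38) with their version and 50376 without it. CPM used TMM-scaled library sizes. Genes passing edgeR's filter with a minimum count of 10 (21494) entered the edgeR 4.0.16 quasi-likelihood test with robust estimation in R 4.3.3, fitted on all 17 libraries in 5 groups, with Benjamini-Hochberg adjustment over all genes tested and a threshold of 0.05. The script was tested on simulated counts with known changes of 1.5, 2, 4 and 8-fold. For Myc tumors against brain it called 0%, 0%, 38% and 50% of these. For extracranial against Myc tumors it called 0%, 6%, 38% and 50%. The simulation changed few genes, so these shares need not hold for the comparisons made here. A gene that was not called may still have changed. Alternatives used limma 3.58.1 (voom), DESeq2 1.42.0, other scaling, other filters and left-out libraries. Replicates of a group differed by a chi-square per gene of 65.3 to 885.3, so none was a repeat of another. Levels per kilobase used the union of exons.

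The members and all gene lists were chosen with earlier results of these data known. Every member may be named. Values in every library are given for 14 members and for the 3 called members that changed most in either direction in a comparison. Other pathway genes were named from the 4 called genes of smallest adjusted p per list and comparison.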

Additional observations from a re-analysis of the deposited data

Results flagged for a closer look

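In groups of 4 libraries, 7 of 74 gene and group pairs had a library whose distance to its nearest neighbour exceeded Dixon's 95% limit for the range of the group, and chance alone gives about 1 in 20. Myc tumor 2 accounted for 3 of them: Trib3 was at 49.8 CPM there against 5.58 to 9.33 in the other Myc tumors, Ppp1r15a at 178 against 30.3 to 54.3, and Hspa8 at 4369 against 1855 to 2265. The other 4 were in extracranial tumors, each in a different library. Sdf2l1 was at 52.1 CPM in extracranial tumor 1 against 17.6 to 21.7 in the others. Asns was at 65.6 CPM in extracranial tumor 2 against 24.3 to 31.3. Derl3 was at 31.5 CPM in extracranial tumor 3 against 1.43 to 2.67. Pdia6 was at 584 CPM in extracranial tumor 4 against 297 to 334.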

How the results depend on the processing

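No log2 fold change of a called member reversed under the alternatives run, and 25 of 29 calls in Myc tumors against brain, 19 of 26 in extracranial tumors, 24 of 30 in grafts and 17 of 24 in Myc against SHH tumors held under every one of them, beside 0 of 2 in grafts against extracranial tumors. The cause of the changes below was not tested. In SHH tumors against brain, the members called higher went from 0 to 1 with a minimum count of 50 or with the compared groups only, to 3 with DESeq2 and to 6 with voom, and those lower to 1 with voom. With 1 library left out the number higher was 0 to 1. In extracranial tumors against brain, 1 member, Hsp90aa1, was lower with RLE scaling, no filter, DESeq2, voom, the replicate block, or extracranial tumors 1 and 2 left out together, and 0 to 1 with 1 library left out. That last pair was chosen after seeing the data, since both held muscle transcripts, and gave 20 members higher. Leaving out healthy brain 1 and SHH tumor 1 together gave 27, 22 and 28 members higher against brain in Myc tumors, extracranial tumors and grafts, and 23 in Myc against SHH tumors. In grafts against brain, voom called 1 lower. In extracranial against Myc tumors, DESeq2 called 3 lower. In grafts against extracranial tumors, the 2 higher became 1 with no filter, 8 with DESeq2, 6 with voom, 0 with the compared groups only, 0 with the replicate block and 0 to 3 with 1 library left out, and DESeq2 called 1 lower.

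Library numbers gave no sign of pairing the samples: deviations of same-numbered libraries correlated at -0.167 to 0.079. Such values cannot show that no animal, litter or batch was shared. With the replicate block the members higher were 27 in Myc tumors, 24 in extracranial tumors and 30 in grafts against brain, and 20 in Myc against SHH tumors.

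Over all genes, SHH tumors against brain gave 524 higher and 416 lower with edgeR, 1592 and 1283 with DESeq2, 3248 and 4250 with voom, and 27 and 35 without healthy brain 3. Grafts against extracranial tumors gave 465 and 563, 1504 and 2229 with DESeq2, and 71 and 39 with the compared groups only. Extracranial against Myc tumors gave 0 and 4, and 491 and 758 with DESeq2. Hspa8 ranked highest in each group with and without division by length. A comparison of the members' protein ends was planned and not run.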
